A study of Mus musculus with 19 samples.

Results

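A set of 6 transcription factor genes was followed through sorted regulatory T cells (Tregs): Id1, Id2 and Id3, which encode inhibitors of DNA binding, and Tcf3, Tcf4 and Tcf12, which encode the E proteins that these inhibitors bind. The 6 genes were taken from the gene count table by symbol, where they are spelled ID1, ID2, ID3, TCF3, TCF4 and TCF12. All 6 of 6 had a row among its 24982 rows, and 5 passed the filter on low counts, which kept 11464 genes for testing. Id1 did not pass it.

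RNA had been sequenced from CD4+FoxP3-GFP+ Tregs of the lymph nodes that drain the injury site, sorted as CD44high or CD44low. All mice were Foxp3DTR animals, in which GFP and the diphtheria toxin receptor are expressed from the Foxp3 locus, and the study used mice of 8 to 16 weeks. Injured mice had 20% of the body surface placed in water of 90 °C for 9 seconds and were examined 7 days later, while uninjured (sham) mice were placed in water at room temperature. The groups held 4 uninjured CD44high, 5 uninjured CD44low, 4 injured CD44high and 6 injured CD44low libraries, each from 50000 cells. The labels do not say whether a library came from 1 mouse or from several, so p-values measure only the spread between these libraries, which may be technical. The names of 3 injured CD44low libraries (1_2, 4_2, 5_2) end in a further number whose meaning is not given, and these are called second-number libraries.

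E proteins are basic helix-loop-helix factors that pair with each other and bind the E-box, a short motif in enhancers and promoters. Id proteins have the helix-loop-helix part but no DNA-binding part, so an E protein paired with an Id protein cannot bind DNA. In T cells, Id3 is known as the inhibitor of naive and memory-precursor cells and Id2 as that of effector and tissue cells, and in Tregs both are known to restrain E protein activity.

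The Id2 and Id3 promoters are shown because the balance of these genes is the comparison that follows. RefSeq windows (GRCm38.p6) of 250 bases that end at the base before an annotated start were found for 4 of the 6 genes. Id1 had no such window, and Tcf4 was left out of this search. In GENCODE vM21 (GRCm38) the genes lie at chr2:152736251-152737410 (Id1), chr12:25093799-25097140 (Id2), chr4:136143497-136145755 (Id3), chr10:80409514-80433647 (Tcf3) and chr9:71842688-72111871 (Tcf12), coordinates of that annotation and not of the counts. Capitals mark E-boxes, searched as CANNTG, which reads the same on both strands. Id2 is on the minus strand of chromosome 12 and Id3 on the plus strand of chromosome 4.
Id2, chr12:25096093-25096342, minus strand: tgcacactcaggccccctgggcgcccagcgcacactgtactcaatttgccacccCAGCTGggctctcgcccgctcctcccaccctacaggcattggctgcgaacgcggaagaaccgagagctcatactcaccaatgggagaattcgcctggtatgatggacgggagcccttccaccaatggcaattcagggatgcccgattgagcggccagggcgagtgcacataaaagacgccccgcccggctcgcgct
Id3, chr4:136143572-136143821, plus strand: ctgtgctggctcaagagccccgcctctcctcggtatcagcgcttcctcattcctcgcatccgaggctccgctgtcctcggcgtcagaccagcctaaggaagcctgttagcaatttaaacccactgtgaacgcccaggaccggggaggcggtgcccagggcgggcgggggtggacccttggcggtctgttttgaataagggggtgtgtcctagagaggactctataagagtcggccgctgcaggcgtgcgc
The Id2 window held 1 E-box, CAGCTG, whose first base lay 196 bases before the RefSeq start. The Id3 window held no match. Both windows lie inside the genes as GENCODE draws them, with starts farther upstream, so these matches hold for the RefSeq starts only. Of 32851 windows of the same length over all genes, 66.2% held a CANNTG match and 13% held CAGCTG, so neither count was unusual for a promoter. Tcf3 had 1 match, CACTTG, and of the 3 Tcf12 windows 2 had 1 match each, CAGCTG and CAAGTG. These matches describe letters only.

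Library totals ran from 5582234 to 9433610 counts. Levels are given as CPM, which are counts divided by the library's total over the genes that passed the filter and scaled by edgeR's TMM factors. A difference is called where the adjusted p was under 0.05 in a two-sided quasi-likelihood test of edgeR, adjusted over all 11464 genes by Benjamini-Hochberg. The sort and the labels matched: Foxp3 was counted in every group, at mean CPM of 87.8 in uninjured CD44high, 115 in uninjured CD44low, 70.7 in injured CD44high and 104 in injured CD44low cells, and Cd44, the sort antigen, had mean CPM of 595, 133, 436 and 117 in the same order. All 6 of 6 Treg markers had counts in every group.

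Id2 separated the sort. In uninjured mice the CD44high libraries had 267, 283, 208 and 244 CPM and the CD44low libraries had 31.6, 23.2, 26.1, 29.9 and 26.2 CPM. In injured mice the CD44high libraries had 182, 203, 176 and 209 CPM, and the 6 CD44low libraries ran from 33.7 CPM through a median of 37.6 to 43.2. Every CD44high library was above every CD44low library. Id2 was 9.14-fold higher in CD44high cells of uninjured mice (log2 difference 3.19, SE 0.12, edgeR adjusted p = 1.31e-15) and 5.09-fold higher in injured mice (log2 2.35, SE 0.11, adjusted p = 1.04e-13).

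The Id2 gap narrowed with injury. CD44low cells rose from 27.4 ± 3.35 CPM (SD, n = 5) to 37.9 ± 3.95 (n = 6), with no overlap between the groups, a log2 difference of 0.47 (SE 0.11, edgeR adjusted p = 0.0138). That call was lost with edgeR on the compared groups alone (adjusted p = 0.0551). In CD44high cells the mean was 251 ± 32.3 CPM (n = 4) in uninjured and 193 ± 16.2 (n = 4) in injured mice. That log2 difference of -0.38 (SE 0.12) missed the threshold (edgeR adjusted p = 0.0956), and 1 injured library, at 209 CPM, was above the lowest uninjured one, at 208 CPM. The injury effect in CD44high minus that in CD44low was -0.84 on the log2 scale (95% interval -1.18 to -0.51, edgeR adjusted p = 0.0115), and 1 alternative fit ended this call. DESeq2 gave the difference in CD44high cells an adjusted p of 0.0389.

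**Figure D1:**
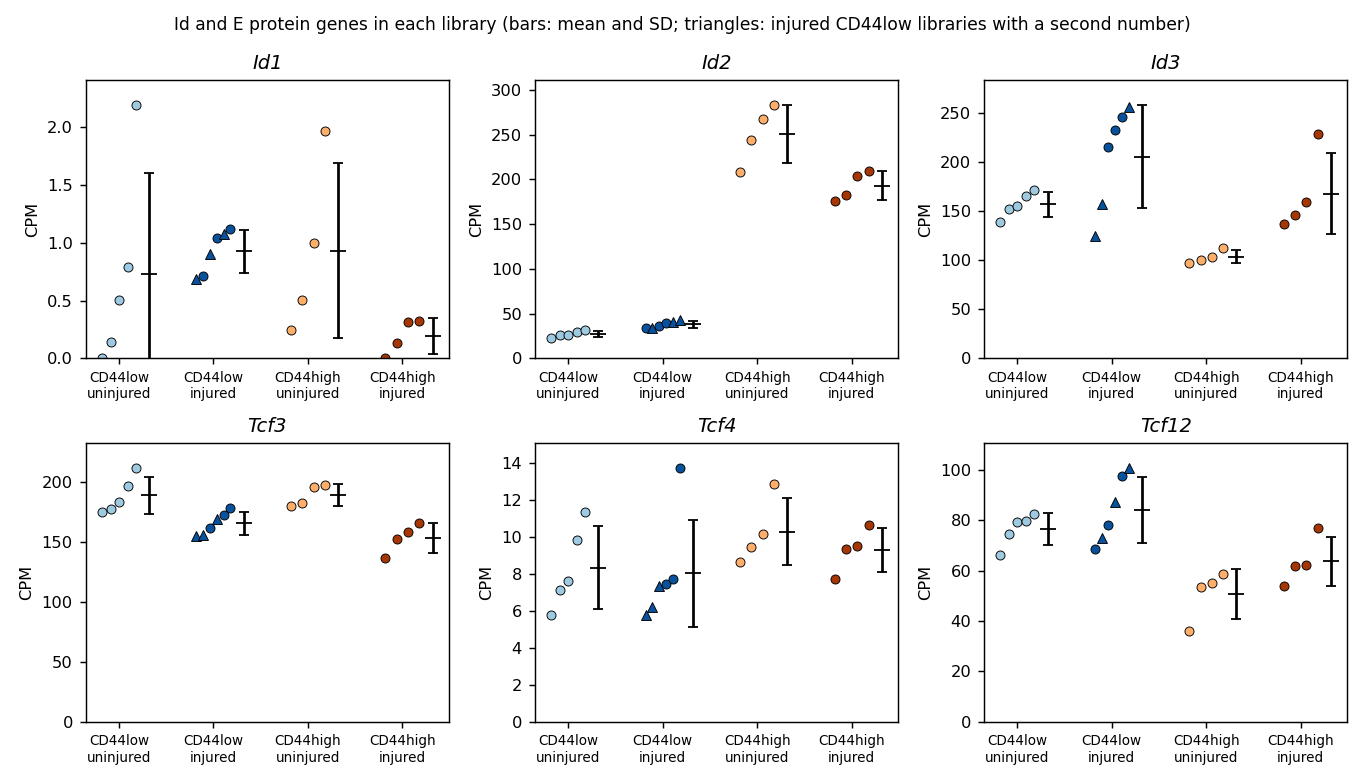
Level of each gene (CPM, y axis from 0) in each library of the 4 groups, with the group mean and SD beside the points. Id2 is high in both CD44high groups and Id3 is above 97 CPM in every library. The SD bar of Id1 in uninjured CD44low cells reaches below 0 and is drawn only down to it.

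Id3 had the opposite order. In uninjured mice the CD44high libraries had 103, 113, 97.4 and 100.3 CPM and the CD44low libraries had 171, 165, 155, 152 and 139 CPM. The groups did not overlap, and Id3 was lower in CD44high cells by a log2 difference of -0.60 (SE 0.17, edgeR adjusted p = 0.00659). After injury the CD44high libraries had 228, 137, 146 and 159 CPM, all above the 4 uninjured CD44high libraries. Id3 rose 1.62-fold in CD44high cells (log2 0.70, SE 0.18, edgeR adjusted p = 0.0386). This call was lost when any of 6 libraries was left out (uninjured 2, 3, 4 or 5, injured 2 or 5), with log2 values from 0.52 to 0.75 and adjusted p up to 0.160. The lowest value came without injured library 2, the one at 228 CPM.

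In injured CD44low cells Id3 was at 245, 233 and 215 CPM in the libraries with 1 number and at 256, 158 and 125 CPM in 1_2, 4_2 and 5_2. The last 2 lay within or below the uninjured CD44low range and the other 4 above it. Over all 6, the injured minus uninjured log2 difference was 0.39 (SE 0.15, edgeR adjusted p = 0.112). It was 0.56 (adjusted p = 0.00613) without the 3 second-number libraries and 0.21 (adjusted p = 0.515) with only those 3. Leaving out library 5_2 alone gave 0.52 (adjusted p = 0.0120). Between CD44high and CD44low cells of injured mice the log2 difference in Id3 was -0.29 (SE 0.16, adjusted p = 0.164), and -0.47 (adjusted p = 0.0104) without those 3 libraries. This difference also passed the test when injured CD44high library 2 or injured CD44low library 5_2 was left out alone, at -0.50 and -0.41. The injury effect on Id3 was not shown to differ between the subsets (log2 0.31, 95% interval -0.18 to 0.79, adjusted p = 0.696).

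**Figure D2:**
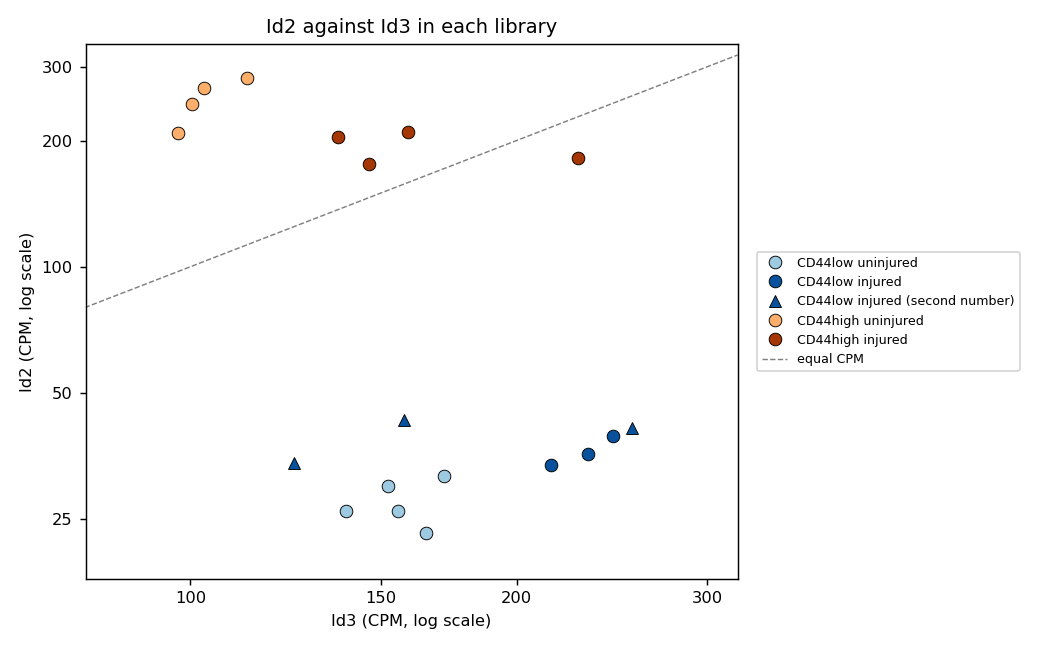
Id2 against Id3 in each library, both in CPM on log scales, coloured by group, with triangles for the 3 second-number libraries and a dashed line of equal CPM. Uninjured CD44high libraries lie farthest above the line and both CD44low groups far below it.

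Within a library the ratio of the Id2 to the Id3 count does not depend on how libraries are scaled. It was 2.60, 2.51, 2.14 and 2.44 in uninjured CD44high libraries and 0.184, 0.140, 0.168, 0.197 and 0.188 in uninjured CD44low libraries. In injured CD44high libraries it was 0.799, 1.49, 1.20 and 1.32, all below the uninjured ones, and in library 2 Id3 had the larger count. Injured CD44low libraries had 0.161, 0.154, 0.156 and 0.161 in 4 libraries and 0.274 and 0.273 in 4_2 and 5_2. On the log2 scale the ratio averaged 1.27 ± 0.12 (SD) in uninjured CD44high, 0.23 ± 0.39 in injured CD44high, -2.52 ± 0.19 in uninjured CD44low and -2.40 ± 0.41 in injured CD44low cells. No p is given for the ratio because it combines genes chosen together.

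Per kilobase of merged exons (2438 bases for Id2, 1791 for Id3), Id2 was above Id3 in uninjured CD44high cells, at 103 and 57.7 CPM per kilobase. In injured CD44high cells the order turned, at 79.0 for Id2 and 93.4 for Id3, but with the median coding transcript as length (1270 and 1278 bases) Id2 stayed above Id3, at 152 and 131. That order therefore rests on which length is used. In both CD44low groups Id3 was above Id2 by either length. Id2 made up 63.6% of the summed Id1, Id2 and Id3 level per kilobase of merged exons in uninjured CD44high cells, 46.3% in injured CD44high, 11.3% in uninjured CD44low and 12.4% in injured CD44low cells.

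**Figure D3:**
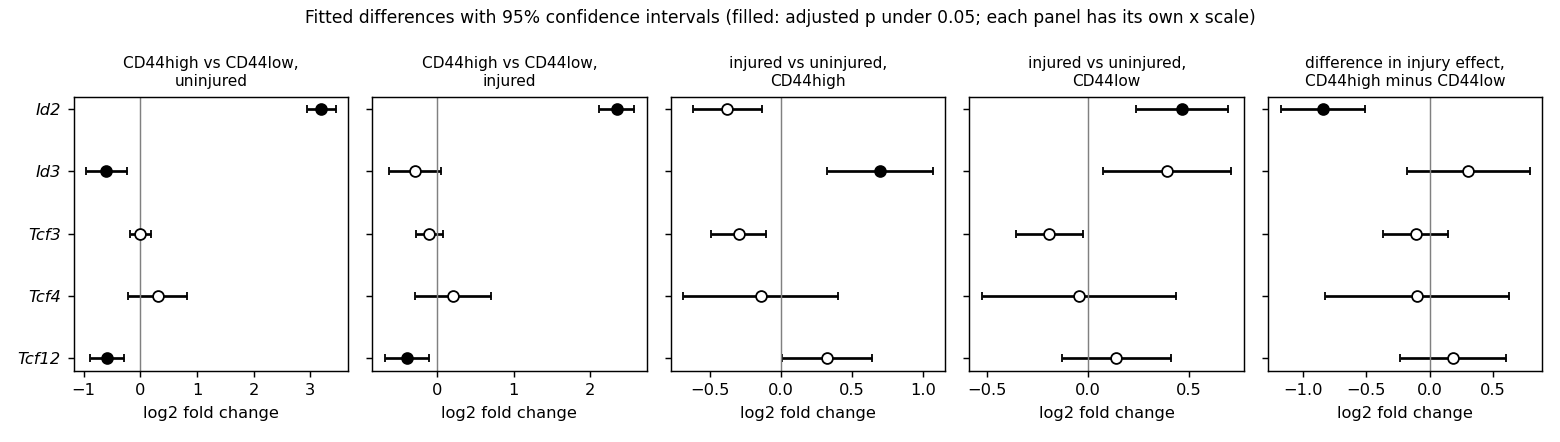
Fitted log2 difference of the 5 tested genes in each comparison with 95% confidence intervals, filled where the edgeR adjusted p was under 0.05. Id2 is filled in every panel but the injury effect in CD44high cells, and Tcf3 and Tcf4 are open in all 5 panels.

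Id1, an inhibitor best known as a target of bone morphogenetic protein signals, was near the limit of detection. The 4 uninjured CD44high libraries had 11, 3, 6 and 2 counts, the 5 uninjured CD44low libraries 14, 5, 1, 0 and 3, the 4 injured CD44high libraries 1, 3, 3 and 0, and the 6 injured CD44low libraries 4 to 9. Mean CPM was 0.929, 0.725, 0.193 and 0.924 in that order. In injured mice every CD44high library was below every CD44low library (difference in mean CPM -0.731, exact permutation p = 0.00476 two-sided, the smallest this design allows, and 0.0190 after Benjamini-Hochberg adjustment over 4 comparisons). With all genes kept in the edgeR fit the same difference had an adjusted p of 0.0852. The permutation test took the 6 injured CD44low libraries as separate units. It was not tried with 1 and 1_2 and 5 and 5_2 summed. The other 3 comparisons of Id1 had exact permutation p of 0.659, 0.0857 and 0.647.

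Tcf3, whose splice forms are the most studied E proteins of lymphocytes, had the highest level of the E protein genes by either length. Per kilobase of merged exons it was at 46.9 CPM in uninjured CD44high cells, against 3.27 for Tcf12 and 0.375 for Tcf4. With the median coding transcript as length the gap was smaller, at 66.7 for Tcf3, 11.8 for Tcf12 and 4.38 for Tcf4. Tcf3 had 196, 182, 198 and 180 CPM in uninjured CD44high libraries and 212, 177, 184, 175 and 197 CPM in uninjured CD44low libraries. The subsets overlapped fully, with a log2 difference of 0.00 (SE 0.09, 95% interval -0.18 to 0.19, adjusted p = 0.989), an interval that does not reach the uninjured subset differences of Id2 or Id3. Injured CD44high libraries had 137, 159, 166 and 153 CPM, all below the uninjured ones. The log2 difference of -0.30 (SE 0.09) did not pass in edgeR (adjusted p = 0.0983) and did in DESeq2 (adjusted p = 0.0263). In CD44low cells the means were 189 ± 15.2 CPM uninjured and 166 ± 9.46 injured (log2 -0.19, adjusted p = 0.135).

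Tcf12, which encodes HEB and pairs with the other E proteins in T cell development, was lower in CD44high cells. Uninjured CD44high libraries had 36.0, 53.6, 54.9 and 58.5 CPM and uninjured CD44low libraries had 66.1, 74.4, 82.3, 79.2 and 79.8 CPM, with no overlap (log2 -0.59, SE 0.15, edgeR adjusted p = 0.00227). After injury the CD44high libraries had 62.1, 61.9, 76.7 and 53.7 CPM and the CD44low libraries ran from 68.4 through a median of 82.6 to 100.5 CPM, and the groups overlapped. The injured log2 difference was -0.40 (SE 0.14, adjusted p = 0.0267), and it lost its call without injured CD44high library 3 or 5 or injured CD44low library 5_2 (adjusted p up to 0.110). It was also lost with 1 and 1_2 and 5 and 5_2 summed (adjusted p = 0.0537) and without the 3 second-number libraries (adjusted p = 0.0954). A block for replicate number within injury ended it too (adjusted p = 0.0651). Injury changed Tcf12 by less than the threshold in both subsets, with log2 differences of 0.32 (adjusted p = 0.318) and 0.14 (adjusted p = 0.524).

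Tcf4, the E protein gene that marks plasmacytoid dendritic cells, was low. Group means were 10.3 ± 1.81 CPM in uninjured CD44high, 8.33 ± 2.24 in uninjured CD44low, 9.29 ± 1.19 in injured CD44high and 8.03 ± 2.88 in injured CD44low cells. None of its 5 comparisons passed the test, with adjusted p from 0.343 to 0.955. Its counts of 32 to 96 per library leave wide intervals, for example -0.22 to 0.83 for the log2 difference between the uninjured subsets. The 6 plasmacytoid dendritic cell markers all had counts in every group, with summed CPM of 178 to 222, 148 to 195, 189 to 222 and 168 to 215 in uninjured CD44high, uninjured CD44low, injured CD44high and injured CD44low libraries. Most of that sum was Bst2 and Irf8, which other cells express. The more specific Siglech was higher in CD44high cells, at mean CPM of 17.3, 0.745, 11.4 and 0.659, as was Klk1 at 2.24, 0.0630, 2.40 and 0.0250. Irf8 was also higher there, at 104, 58.7, 80.9 and 62.3. Ccr9 went the other way, at 6.01, 15.3, 4.76 and 12.9, as did Bst2 at 65.7, 78.1, 94.5 and 114. Spib, at 6.95, 7.20, 8.24 and 5.59, did not keep 1 direction. The part of these 6 markers in the Tcf4 level was not tested.

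Counted over the 5 tested genes, 1 was higher (Id2) and 2 were lower (Id3, Tcf12) in CD44high cells of uninjured mice, where 46.1% of all genes were called (24.7% higher, 21.3% lower) and 40.7% had groups that did not overlap. In injured mice 1 was higher (Id2) and 1 lower (Tcf12), where 37.4% were called (20.1% higher, 17.2% lower) and 24.8% did not overlap. With so large a background these counts single out no member. For injury in CD44high cells 1 of 5 was called (Id3, higher), where 2.38% of all genes were called (1.06% higher, 1.33% lower) and 13.3% had groups that did not overlap. For injury in CD44low cells 1 of 5 was called (Id2, higher), where 7.6% were called (4.24% higher, 3.36% lower) and 4.68% did not overlap. For the difference between the injury effects, 1 of 5 was called (Id2), where 0.645% of all genes were called (0.192% higher, 0.454% lower).

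The ratio of Id to E protein transcripts had different means in the 4 groups. Per kilobase of merged exons, the summed Id level was 3.20 ± 0.42 times the summed E protein level in uninjured CD44high, 1.91 ± 0.17 in uninjured CD44low, 4.11 ± 0.85 in injured CD44high and 2.81 ± 0.68 in injured CD44low libraries. With coding transcript lengths the means were 3.38, 1.65, 3.92 and 2.37. The order of the 4 means was the same with either length. Neighbouring groups overlapped: injured CD44low ran from 1.86 to 3.62, across the ranges of both uninjured groups. Tcf3 supplied 92.8%, 89.9%, 89.6% and 87.8% of the summed E protein level in uninjured CD44high, uninjured CD44low, injured CD44high and injured CD44low cells per kilobase of merged exons, and 80.5%, 75.7%, 74.3% and 71.9% by coding transcript length. No p is given for these sums.

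**Figure D4:**
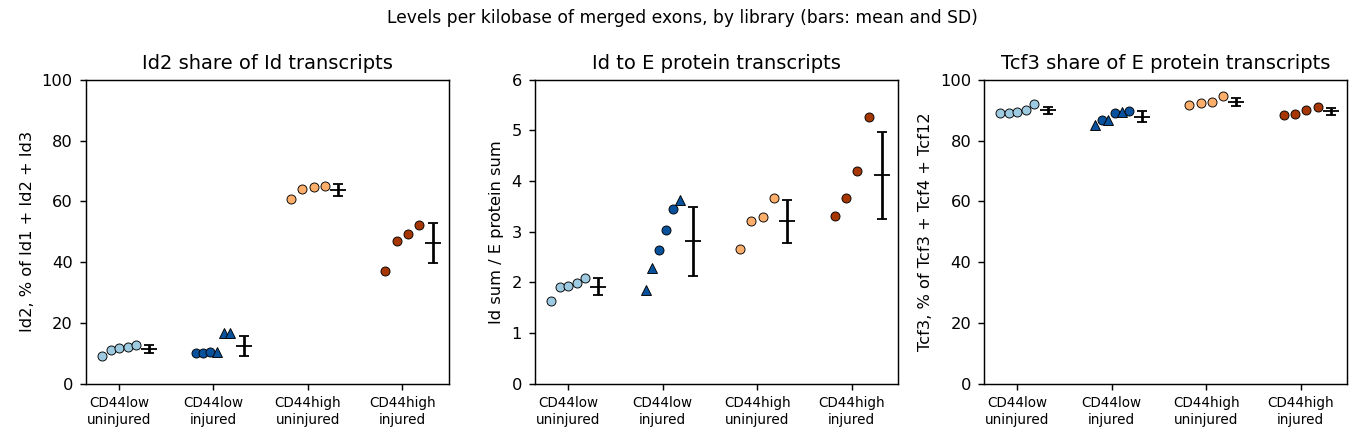
Id2 share of the Id sum, Id to E protein ratio and Tcf3 share of the E protein sum in each library, per kilobase of merged exons, with group mean and SD. Id2 is above 36% of the Id sum in every CD44high library and below 17% in every CD44low library, and Tcf3 is above 85% of the E protein sum in every library.

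Markers of other cells were present at levels that differed between the lists, and some moved with the sort. The 7 dendritic cell and macrophage markers, cells that also express Id2, all had counts in every group, with summed CPM of 70.2 to 145 in uninjured CD44high, 20.6 to 38.0 in uninjured CD44low, 89.7 to 227 in injured CD44high and 32.6 to 145 in injured CD44low libraries. Their part in the Id2 difference was not tested. The defining factor Zbtb46 had mean CPM of 2.38, 0.550, 2.29 and 1.24 in the same order. The 4 innate lymphoid markers summed to 552 to 638, 126 to 179, 442 to 615 and 268 to 466 CPM, mostly from Il7r and Il1rl1, which T cells can also express, and their part in the Id2 difference was not tested either. Of these markers Kit had mean CPM of 5.95, 4.52, 4.47 and 3.87. B cell markers, from cells that express Id3 and Tcf3, summed to 99.6 to 198, 75.2 to 146, 97.3 to 219 and 101 to 181 CPM, with overlap between all groups. In bulk cells, fewer expressing cells and less RNA per cell cannot be told apart.

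Genes with the profile most like each member were found by the root-mean-square difference of centred log2 CPM over 19 libraries. For Id2 these were Rora, a nuclear receptor, at 0.190, Lgals1, which encodes galectin-1, at 0.225, and Gm15511 at 0.234, against a median of 1.41 over all genes. Rora had mean CPM of 309 in uninjured CD44high, 35.8 in uninjured CD44low, 235 in injured CD44high and 42.4 in injured CD44low cells. For Id3 they were Tspan13, a tetraspanin, at 0.172, Tespa1, a T cell receptor signalling protein, at 0.190, and Gimap9, a GTPase, at 0.202 (median of all genes 0.585). Tspan13 had mean CPM of 372, 518, 589 and 710 in the same order as Rora. The nearest genes were Polr2b, Anapc2 and D330050I16Rik for Tcf3, Cmah, Haus3 and Ints6 for Tcf4, and Selenoo, Pafah1b1 and Prkch for Tcf12. Without the second-number libraries, all 3 nearest genes of Id2 returned, 1 of 3 did for Id3, Tcf3 and Tcf4, and none for Tcf12.

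Further partners of E proteins were almost silent. None of 12 (Id4 and class II helix-loop-helix factors such as Tal1 and Lyl1) passed the filter. Id4, the fourth inhibitor, had 2 counts in all, in 1 injured CD44high library, Tal1 had none in any library, and Lyl1 had 11, 8, 21 and 29 counts summed over the 4, 5, 4 and 6 libraries of uninjured CD44high, uninjured CD44low, injured CD44high and injured CD44low cells.

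Of 26 other E-box factors 22 were tested. Between CD44high and CD44low cells 6 were higher and 6 lower in uninjured mice, and 8 and 6 in injured mice, beside 46.1% and 37.4% of all genes called. The medians of the log2 difference were 0.13 and 0.27 against 0.01 and 0.00 over all genes. Snai2, a repressor that competes for E-boxes, was higher by 6.14 and 4.33, with mean CPM of 14.4 against 0.203 and 9.46 against 0.455. The uninjured CD44low group had 6 Snai2 counts, all in library 5, and leaving out 1 library gave log2 values from 5.81 to 9.64, the last without library 5, where the group has no count and the fitted value is no bound. Mxd3, a Myc antagonist, was higher by 2.14 and 1.70. Myc was lower by -1.42 and -1.25, and Zeb1, an E-box repressor, by -1.25 and -0.79. With injury, 1 of 22 rose in CD44high cells (Myc, log2 0.45, adjusted p = 0.0217), beside 2.38% of all genes called, and in CD44low cells 1 rose (Mxd4, 0.46) and 3 fell (Max, -1.45; Mxd1, -0.55; Zeb1, -0.56), beside 7.6%. The calls were lost in 4 of 28 alternatives for Myc and in 8 of 28 each for Mxd4 and Zeb1 (adjusted p up to 0.0915, 0.224 and 0.163), and the number of these factors that rose in CD44low cells ran from 0 to 5. Of the 22, only Max, the partner of Myc, differed in its injury effect between subsets (log2 2.27, SE 0.38, adjusted p = 0.00321), beside 0.645% of all genes called. Its mean CPM was 37.1 in uninjured CD44high, 106 in uninjured CD44low, 66.1 in injured CD44high and 39.1 in injured CD44low cells.

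Cofactors of E and Id proteins were mostly lower in CD44high cells. Of 10 tested of 12, 2 were higher and 6 lower in uninjured mice, and 3 and 6 in injured mice, beside 24.7% higher and 21.3% lower and 20.1% and 17.2% of all genes, with medians of -0.55 and -0.57 against 0.01 and 0.00 over all genes. The acetyltransferase genes Kat2a (-1.02 and -0.98) and Kat2b (-1.03 and -0.96) and the adaptor Lmo4 (-1.79 and -1.26) were lower, while Skp2, an E3 ligase subunit (1.38 and 1.40), and Usp1, the deubiquitinase that stabilises Id proteins (0.50 and 0.30), were higher. With injury only Ldb1 passed, in CD44low cells (log2 0.29, adjusted p = 0.0426), where 7.6% of all genes were called, and it did not pass in 11 of 28 alternatives (adjusted p up to 0.123).

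Of 21 inputs to the Id genes, 18 were tested, and 4 were higher and 8 lower in CD44high cells of uninjured mice, and 3 and 5 in injured mice, beside 46.1% and 37.4% of all genes called, with medians of -0.18 and 0.04 against 0.01 and 0.00 over all genes. Prdm1, the repressor known as Blimp-1 that marks effector Tregs, was higher by 3.58 and 2.93, and Bmpr1a, a bone morphogenetic protein receptor, by 2.76 and 2.10. Tcf7, a factor of naive and memory T cells, was lower by -1.91 and -1.21, and Smad7, an inhibitor of TGF-beta signals, by -1.63 and -1.36. With injury Tcf7 rose in CD44high cells (log2 0.60, adjusted p = 0.000328), from 323 ± 24.2 to 491 ± 18.4 CPM, and Smad4, the common mediator of TGF-beta and bone morphogenetic protein signals, was at -0.36 (adjusted p = 0.0483), a call lost in 23 of 28 alternatives (adjusted p up to 0.198). In that comparison 2.38% of all genes were called. None of the 18 passed in CD44low cells, where 7.6% of all genes were called. Of the 18, only Tcf7 differed in its injury effect between the subsets (log2 0.70, adjusted p = 0.00321), beside 0.645% of all genes called. That call was ended by 1 alternative fit.

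Of 18 genes described as E protein targets in lymphocytes, 14 were tested, and 3 were higher and 8 lower in CD44high cells of uninjured mice, and 3 and 7 in injured mice, beside 46.1% and 37.4% of all genes called, with medians of -0.58 and -0.47 against 0.01 and 0.00 over all genes. Cdkn1a, a cell cycle inhibitor, was higher in both (3.01 and 2.28). Il7r, the interleukin-7 receptor, was higher in CD44high cells of uninjured mice (1.35, adjusted p = 1.75e-07) and differed by 0.11 in injured mice (adjusted p = 0.578). Of the 14, only Il7r differed in its injury effect between the subsets (log2 -1.23, adjusted p = 0.00417), beside 0.645% of all genes called. Among the lower ones were Gfi1 (-1.79 and -1.02), Foxo1 (-0.58 and -0.46), Socs1 (-0.63 and -1.19) and Bcl11b (-0.71 and -0.77). With injury Cxcr5, a follicular homing receptor, rose in CD44high cells from 28.0 ± 8.54 to 78.9 ± 16.8 CPM (adjusted p = 0.000402) and Socs1 (-0.50) and Bcl11b (-0.51) fell, where 2.38% of all genes were called. The last 2 lost their calls in 4 and 6 of 28 alternatives. In CD44low cells Il7r (1.28) and Socs3 (0.53) rose and Foxo1 (-0.47) and Bcl11b (-0.45) fell, where 7.6% of all genes were called. Bcl11b lost that call in 2 of 28 alternatives.

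**Figure D5:**
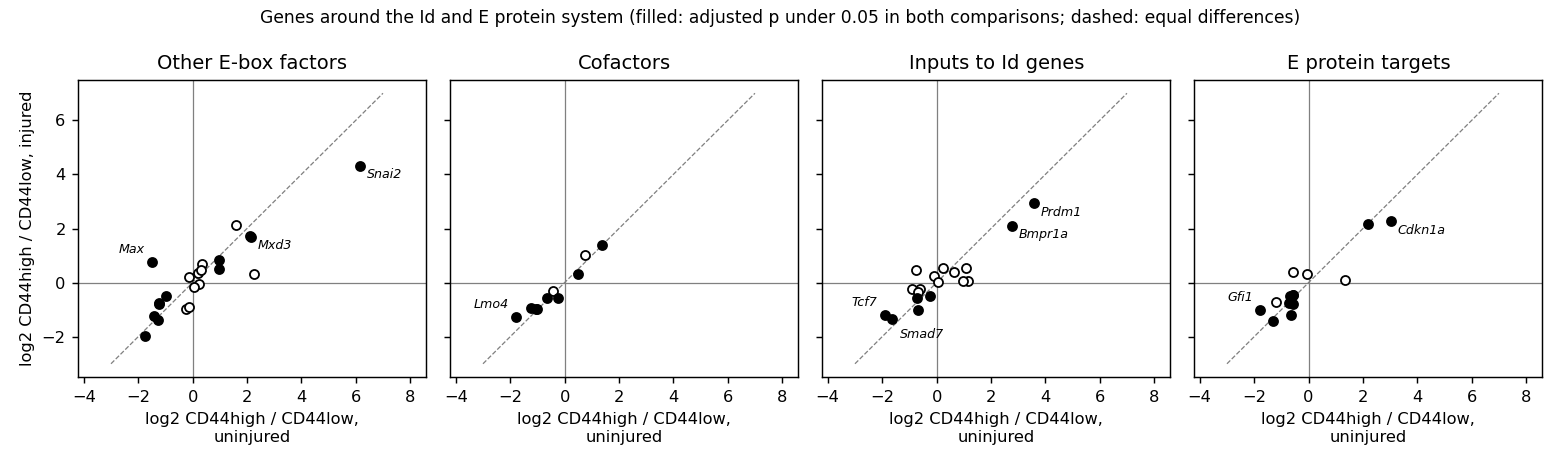
Log2 difference between CD44high and CD44low cells of uninjured (x) and injured (y) mice for the tested genes of 4 groups, filled where the edgeR adjusted p was under 0.05 in both. Most filled points lie near the dashed line of equal differences, Prdm1 and Snai2 are at the upper right, and Max lies apart, lower in uninjured and higher in injured CD44high cells.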

How the data were processed

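The authors deposited 1 table of raw read counts per gene with 19 columns, 1 per library. Per the submitters' processing notes, STAR 2.5 and bcl2fastq 2.18 were used and builds mm9 and mm10 are named without a role. The annotation was not given in the sources used here, nor was the strand setting. Columns were matched to samples by the labels. Of 24982 rows, 8091 had no count, and 24463 symbols matched GENCODE vM21, from which lengths were taken. Without a stated strand setting, antisense reads cannot be told apart.

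Counts were analysed with edgeR 4.0.16 in R 4.3.3: filterByExpr (minimum count 10), TMM factors, 1 mean for each of 4 groups over all 19 libraries in a quasi-likelihood fit, with Benjamini-Hochberg adjustment over 11464 genes. The fit was run on simulated counts in which far fewer genes were changed than were called between the subsets. That run does not test the fit at such a call rate. DESeq2 1.42.0, other filters and scalings, blocks for replicate number and left-out libraries were tried. Log2 ratios used a pseudocount of 0.5 on each count. The members and lists were chosen with earlier results of these data known. Genes named are the members, the 3 most alike in profile, and up to 4 genes with the smallest p per list and comparison. Skp2 and the partner genes with few counts were chosen after their values were seen. Depth was 5582234 to 9433610 counts per library, and intervals and counts cover these libraries only. Some items are not reported here.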

Additional observations from a re-analysis of the deposited data

Results flagged for a closer look

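In injured CD44low cells, Tcf4 reached 13.7 CPM in library 5, far from the other 5 libraries, which lay between 5.75 and 7.72 CPM. It was 1 of 28 groups tested for an outlying library, and chance gives about 1 in 20. The same library had the highest summed dendritic cell and macrophage (145 CPM) and B cell (181 CPM) markers of its group, and their part in the value was not tested.

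By the interaction term of the edgeR fit, the injury effect differed between CD44high and CD44low cells for 0.645% of all genes. Among the tested members and listed genes it differed for 4, of which only Id2 is a member. The log2 differences were -0.84 for Id2, -1.23 for Il7r, 2.27 for Max and 0.70 for Tcf7. All 4 passed the test in that fit, and 1 alternative fit each ended the call for Id2 and Tcf7.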

How the results depend on the processing

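Counts of members called moved in these alternatives: between the injured subsets from 2 to 1 with a replicate block within injury, or with 1 and 1_2 and 5 and 5_2 summed, for injury in CD44high from 1 to 3 with DESeq2 and to 2 without the 3 second-number libraries, for injury in CD44low from 1 to 0 with edgeR on the compared groups alone and to 2 without the 3 or without 4_2 and 5_2, and for the difference of injury effects from 1 to 0 with the block within injury. Leaving out 1 library gave 1 to 3, 0 to 1 and 1 to 2 for the first 3.

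Same-numbered libraries had correlations of -0.00685 to 0.119 in uninjured and -0.0537 to 0.167 in injured mice. Those of differently numbered libraries ran from -0.0798 to 0.0395 and from -0.452 to 0.41. So few pairs cannot exclude pairing, and the main fit did not take the numbers as pairs. The replicate block within injury gave Tcf12 -0.42 (adjusted p = 0.0651) between injured subsets and Id2 -0.87 (0.0851) and Tcf7 0.62 (0.0916) for the difference of injury effects. A block on the first label number changed no call of a member.

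Other changes were as follows. Tcf12 between injured subsets was -0.36 (0.0537) with libraries summed and -0.35 (0.0954) without the 3. Id3 between injured subsets was -0.47 (0.0104) without the 3 and -0.51 (0.00394) without 4_2 and 5_2, and its injury effect in CD44low was 0.56 (0.00613) and 0.62 (0.00206). Id2 in CD44high was -0.38 (0.0389 in DESeq2, 0.0478 without the 3), Tcf3 was -0.30 (0.0263, DESeq2) and Id2 in CD44low was 0.47 (0.0551, compared groups alone). Of signs near 0, Tcf3 between uninjured subsets turned to -0.0036 (no filter), -0.0040 (compared groups alone), -0.011 (only second-number libraries) and -0.0062 (without 4_2 and 5_2). Tcf4 turned to -0.049 between injured subsets and to 0.21 for injury in CD44low without the 3, to 0.10 without 4_2 and 5_2, and to 0.21 for the difference of effects with only the 3. The choices limited to those 3 or to 4_2 and 5_2 were made after seeing the data.

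With 1 library left out, log2 values ran from -0.030 to 0.039 for Tcf3 between uninjured subsets, -0.50 to -0.21 for Id3 and -0.50 to -0.33 for Tcf12 between injured subsets, and 0.52 to 0.78 in CD44high and 0.32 to 0.52 in CD44low for the injury effect on Id3. Those for Tcf4 ran from -0.24 to 0.12 for injury in CD44low and for the difference of effects alike. The difference in Id1 between uninjured subsets ran from -0.140 to 0.570 CPM. Of 3484 alternatives over 128 results, 3252 kept the result. For a single gene this meant the same direction and side of the threshold. For a count of called genes it allowed a limited change, and for a mean ratio a shift smaller than the group SD. Many alternatives left out a library outside the compared groups, which enters only through the shared fit. Genes that were not called and stayed so with the same direction also counted as kept. The share kept therefore does not measure how firm a call is. The cause was not tested in any of the alternatives. Tcf4 and Id1 are limited by their counts.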
